A study of Mus musculus with 6 samples.

Results

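The 10 genes described here encode enzymes and partners that write, copy or remove 2 repressive chromatin marks, DNA methylation and Polycomb histone methylation. They are Dnmt1, Dnmt3a, Dnmt3b and Uhrf1 (DNA methylation), Tet1, Tet2 and Tet3 (its removal), and Ezh1, Ezh2 and Bmi1 (Polycomb). They were chosen by name and not by a threshold on these values, and all 10 were found through their Ensembl gene identifiers among the 30409 genes of each file. RNA-seq was available from 4 libraries of C57BL/6 mouse bone marrow cells. The sorted population was the long-term stem cell of blood (LT-HSC), gated as Lineage−, Sca1+, cKit+, CD34− and Flk2−. The cells came from irradiated Twist1 cKO mice, irradiated wild-type mice, untreated Twist1 cKO mice and untreated wild-type mice, with 1 library in each group. Irradiated cells were taken 12 days after treatment and the untreated cells at steady state. Twist1 is a transcription factor of the basic helix-loop-helix class, and cKO stands for its conditional deletion. The sources used here give no Cre driver, no age of the mice and no number of mice per library. The series also has 2 ATAC-seq samples of irradiated cells, which were not analysed here.

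DNA methylation is laid down on CpG sites by Dnmt3a and Dnmt3b and is copied at replication by Dnmt1, which Uhrf1 guides to hemimethylated sites. The Tet dioxygenases oxidise 5-methylcytosine, a step towards its removal. Polycomb repressive complex 2 methylates a lysine of histone H3 through Ezh2, the form of dividing cells, or Ezh1, the form that is also kept in resting cells. Polycomb repressive complex 1 ubiquitinates histone H2A, and Bmi1 is the subunit long known to be needed for stem cell self-renewal. In mouse blood stem cells, loss of Dnmt3a or Tet2 is known to expand the stem cell pool.

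The values are FPKM as made by the authors (fragments scaled to gene length and to the size of the library), so levels of different genes can be compared within a library. Reads recovered from them summed to 20297826 and 24692145 in the irradiated cKO and irradiated wild-type libraries. In the steady-state cKO and wild-type libraries they summed to 22060852 and 25032731. The library sizes implied by the FPKM were 23450734 and 22146433 in the irradiated cKO and wild-type libraries. In the steady-state cKO and wild-type libraries the implied sizes were 25239648 and 26031985. The recovered reads exceeded the implied size in the irradiated wild-type library alone. The reason was not tested. With 1 library per group there is no replicate check and no p-value. The 95% intervals below are exact and cover counting error only. Differences are in log2(FPKM + 1) where so named. Genes with a mean of at least 1 FPKM over the 4 libraries (11505) are called the genes tested, and 7 of the 10 genes were among them. Tet1, Tet2 and Tet3 had means of 0.972, 0.695 and 0.809 FPKM and stayed below that level.

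Twist1 itself was near its limit of detection: 0 and 5 reads in the irradiated cKO and irradiated wild-type libraries, and 2 and 6 reads in the steady-state cKO and wild-type libraries. The labelled cell type was checked against 14 LT-HSC markers. Of the 13 that were tested, 12 were at least 2-fold lower in the irradiated than in the steady-state library of each genotype. The 14 markers summed to 273 and 112 FPKM in the irradiated cKO and wild-type libraries, against 701 and 807 FPKM in the steady-state cKO and wild-type libraries. Erythroid markers went the other way: of 13 tested, 12 were at least 2-fold higher in the irradiated cKO library and all 13 in the irradiated wild-type library. They summed to 15628 and 13441 FPKM in the irradiated cKO and wild-type libraries, against 2663 and 3960 FPKM in the steady-state cKO and wild-type libraries, and none was at 0. Sex-linked transcripts divided the libraries in the same manner, with Ddx3y at 0.0164 and 0.0521 FPKM in the irradiated cKO and wild-type libraries, against 12.4 and 10.2 FPKM in the steady-state cKO and wild-type libraries. Irradiation, cell type markers and the sex of the mice therefore cannot be told apart between the irradiated and steady-state libraries. In bulk RNA, fewer cells of a type and less RNA per cell cannot be told apart either.

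Uhrf1, Dnmt1 and Ezh2 were the highest of the 10 genes in both irradiated libraries, and the Tet genes were the lowest in all 4 libraries. In the irradiated cKO library, Uhrf1 led with 19.2 FPKM (18.4 to 20.1), followed by Ezh2 and Dnmt1, both at 10.8 FPKM with overlapping intervals. In the irradiated wild-type library the order was Uhrf1 (21.7 FPKM), Dnmt1 (17.7 FPKM) and Ezh2 (15.2 FPKM), and their intervals did not overlap. In the steady-state cKO library, Uhrf1 (16.9 FPKM) and Dnmt1 (16.6 FPKM) overlapped, and Bmi1 (11.4 FPKM) and Ezh2 (9.47 FPKM) followed. In the steady-state wild-type library, Dnmt1 (15.9 FPKM) and Uhrf1 (14.7 FPKM) overlapped, as did Ezh2 (9.61 FPKM) and Bmi1 (9.14 FPKM). Below these, Dnmt3b, Ezh1 and Dnmt3a followed in that order in all 4 libraries. The interval of Dnmt3a reached that of Tet3 in the irradiated wild-type library alone.

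**Figure D1:**
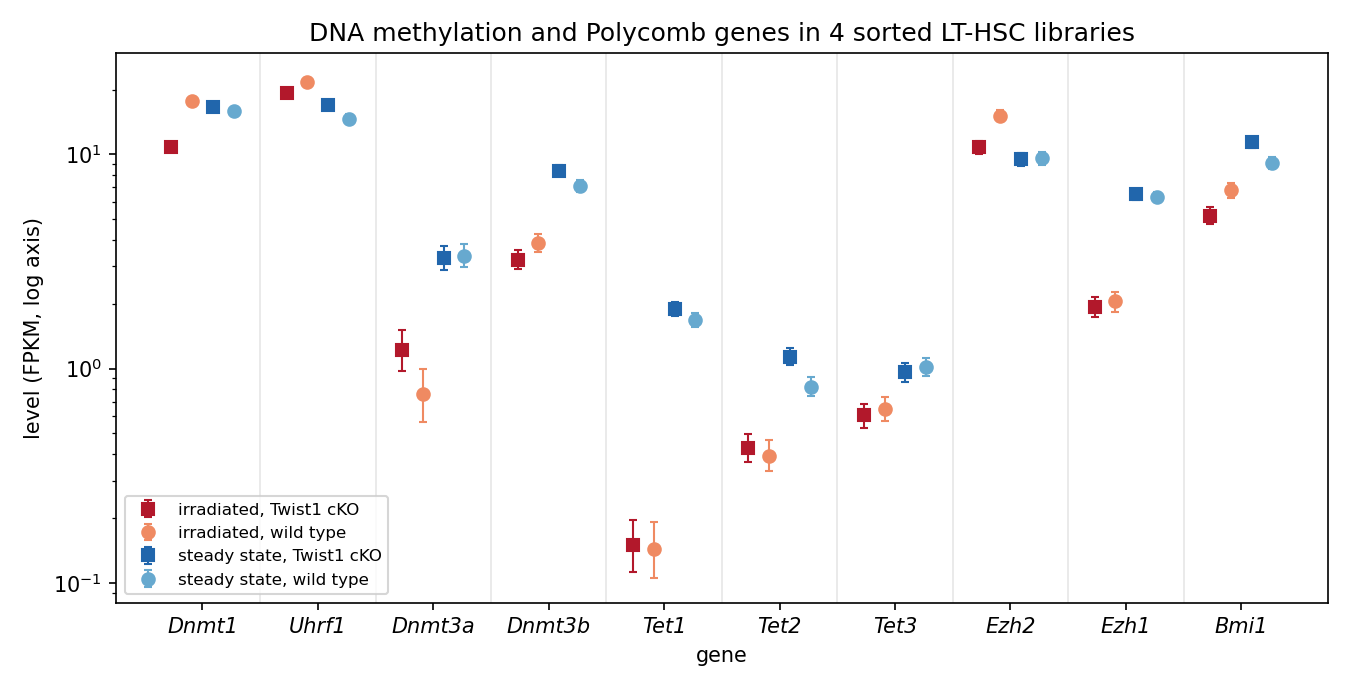
Level of each gene in FPKM (log axis) in the irradiated Twist1 cKO, irradiated wild-type, steady-state cKO and steady-state wild-type libraries. Points are single libraries and bars are 95% counting intervals. Tet1 is at 0.151 and 0.144 FPKM in the irradiated cKO and wild-type libraries and at 1.91 and 1.69 FPKM in the steady-state cKO and wild-type libraries.

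In the maintenance pair, Uhrf1 was higher in both irradiated libraries, and Dnmt1 was lower in the irradiated cKO library. Dnmt1 (ENSMUSG00000004099, chromosome 9 in RefSeq GRCm38.p6, as for the positions below, 20907206 to 20959888), the methyltransferase that follows the replication fork, had 10.8 and 17.7 FPKM in the irradiated cKO and wild-type libraries, against 16.6 and 15.9 FPKM in the steady-state cKO and wild-type libraries. The irradiated cKO library thus stood alone below the other libraries. Irradiated over steady state, the ratio was 0.650 (0.611 to 0.692) in cKO and 1.11 (1.05 to 1.17) in wild type. In cKO the difference of −0.58 in log2(FPKM + 1) stayed negative under all 5 other scalings (−0.65 to −0.26). In wild type the difference of 0.14 changed sign under 2 of them, down to −0.24. Uhrf1 (ENSMUSG00000001228, GRCm38 chromosome 17, 56303337 to 56323486), which recognises hemimethylated CpG sites, had 19.2 and 21.7 FPKM in the irradiated cKO and wild-type libraries, against 16.9 and 14.7 FPKM in the steady-state cKO and wild-type libraries. Both irradiated libraries lay above both steady-state libraries. The share of all genes tested that lay so was not counted. The ratio was 1.14 (1.07 to 1.21) in cKO and 1.48 (1.39 to 1.58) in wild type, and the log2 difference stayed positive under all 5 scalings in both genotypes.

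The genes for de novo methylation were lower in both irradiated libraries. Dnmt3a (ENSMUSG00000020661, GRCm38 chromosome 12, 3801559 to 3914443) had 1.22 and 0.760 FPKM in the irradiated cKO and wild-type libraries, against 3.29 and 3.36 FPKM in the steady-state cKO and wild-type libraries. Irradiated over steady state, that was a ratio of 0.370 (0.286 to 0.476) in cKO and 0.226 (0.164 to 0.307) in wild type, from as few as 50 recovered reads. Dnmt3b (ENSMUSG00000027478, GRCm38 chromosome 2, 153649411 to 153687730), its close relative, had 3.22 and 3.87 FPKM in the irradiated cKO and wild-type libraries, against 8.39 and 7.14 FPKM in the steady-state cKO and wild-type libraries. Its ratio was 0.384 (0.341 to 0.432) in cKO and 0.543 (0.483 to 0.608) in wild type. Neither gene had overlapping levels between irradiated and steady-state libraries. The share of all genes tested without such overlap was not counted. On the log2(FPKM + 1) scale, 35.7% of them were at least 1.5-fold lower after irradiation in cKO and 29.6% in wild type, as were Dnmt3a and Dnmt3b in each genotype. Dnmt3b transcripts outnumbered those of Dnmt3a per length in every library. The ratio of Dnmt3a over Dnmt3b was 0.378 (0.296 to 0.480) and 0.196 (0.143 to 0.263) in the irradiated cKO and wild-type libraries, against 0.393 (0.340 to 0.451) and 0.471 (0.409 to 0.540) in the steady-state cKO and wild-type libraries. The irradiated wild-type library was the one with the lowest ratio. The RefSeq genes Dnmt3aos and Gm31623 overlap Dnmt3a, and no source used here says whether reads were counted by strand.

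Within the methyltransferase family, Dnmt1 made up a larger share in irradiated cells. It took 70.9% and 79.2% of the summed FPKM of the 3 Dnmt genes in the irradiated cKO and wild-type libraries, against 58.7% and 60.2% in the steady-state cKO and wild-type libraries. Such shares do not depend on how libraries are scaled to each other. Dnmt1 over Dnmt3a was 8.86 (7.12 to 11.2) and 23.2 (17.6 to 31.4) in the irradiated cKO and wild-type libraries, against 5.05 (4.43 to 5.77) and 4.73 (4.16 to 5.39) in the steady-state cKO and wild-type libraries. The steady-state ratios overlapped each other, and the irradiated ones did not overlap them or each other.

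Of the Tet genes, Tet1 (ENSMUSG00000047146, GRCm38 chromosome 10, 62804570 to 62887469) differed most. It had 52 and 47 reads in the irradiated cKO and wild-type libraries, against 708 and 646 reads in the steady-state cKO and wild-type libraries. As levels, these were 0.151 and 0.144 FPKM in the irradiated cKO and wild-type libraries, against 1.91 and 1.69 FPKM in the steady-state cKO and wild-type libraries. Tet1 was thus 12.7-fold (9.54 to 17.1) lower in the irradiated cKO library and 11.7-fold (8.69 to 16.1) lower in the irradiated wild-type library. Tet2 (ENSMUSG00000040943, GRCm38 chromosome 3, 133463677 to 133545136), often mutated in human clonal haematopoiesis, had 0.427 and 0.393 FPKM in the irradiated cKO and wild-type libraries, against 1.14 and 0.824 FPKM in the steady-state cKO and wild-type libraries. Irradiated over steady state, its ratio was 0.376 (0.314 to 0.449) in cKO and 0.477 (0.391 to 0.580) in wild type. Tet3 (ENSMUSG00000034832, GRCm38 chromosome 6, 83362373 to 83457208) had 0.605 and 0.646 FPKM in the irradiated cKO and wild-type libraries, against 0.961 and 1.02 FPKM in the steady-state cKO and wild-type libraries. It was 1.59-fold (1.35 to 1.87) lower in cKO and 1.58-fold (1.35 to 1.86) lower in wild type. All 3 genes were lower in both irradiated libraries than in either steady-state library, by unequal folds. The share of all genes tested that separated in this way was not counted. By comparison, 35.7% of them were at least 1.5-fold lower after irradiation in cKO and 29.6% in wild type, on the log2(FPKM + 1) scale. On that scale, which shrinks folds of low values, Tet2 had −0.58 in cKO and −0.39 in wild type. Tet3 had −0.29 in cKO and −0.30 in wild type. Of the Tet genes, Tet1 alone reached 1.5-fold there.

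The family's make-up differed accordingly. Tet1 took 12.7% and 12.2% of the summed Tet FPKM in the irradiated cKO and wild-type libraries, against 47.6% and 47.8% in the steady-state cKO and wild-type libraries. Tet3 was the most abundant Tet transcript per length in irradiated cells (51.2% in cKO, 54.6% in wild type), a place held by Tet1 at steady state. The sum over the 3 genes was 1.18 FPKM in both irradiated libraries, against 4.005 and 3.53 FPKM in the steady-state cKO and wild-type libraries. RefSeq also places Gm51805 over Tet1 and B230319C09Rik over Tet3, and F830010H11Rik over Ezh2, so part of their reads could belong to these.

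**Figure D2:**
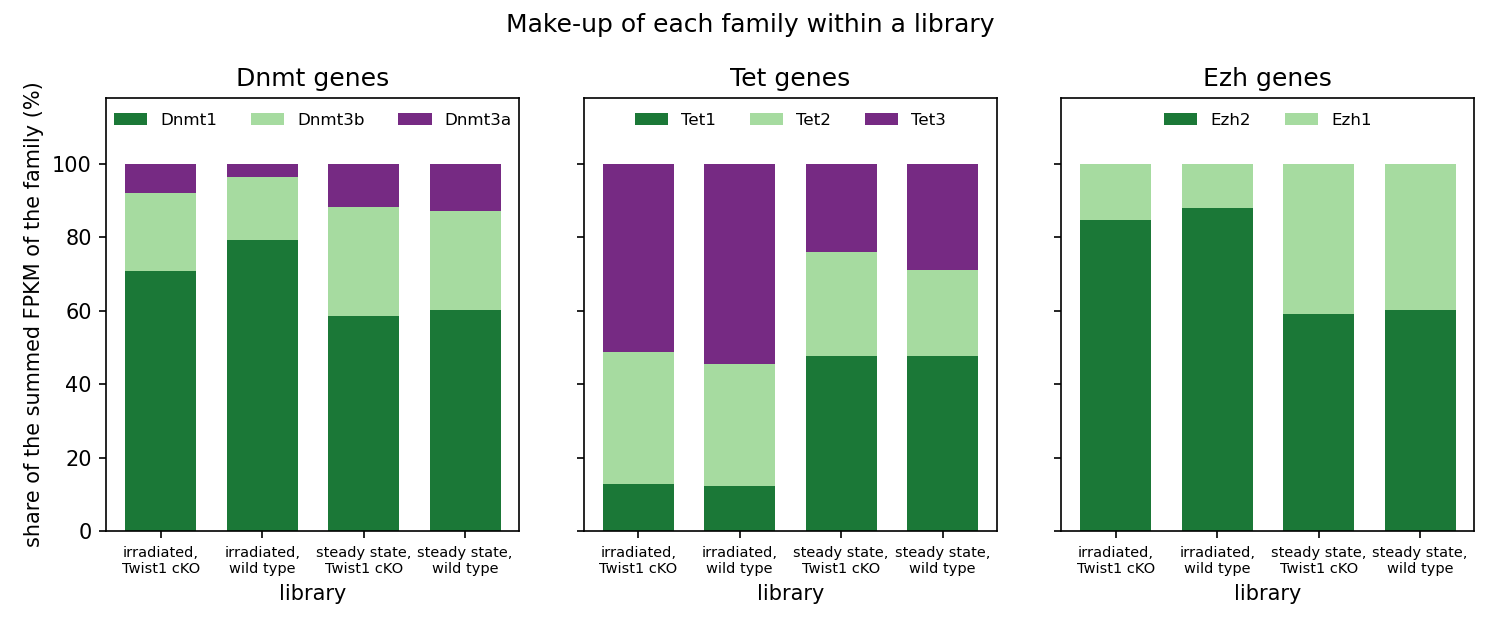
Share (%) of the summed FPKM of each family taken by each gene, for the Dnmt, Tet and Ezh genes. Bars are the irradiated cKO, irradiated wild-type, steady-state cKO and steady-state wild-type libraries. Dnmt1, Tet3 and Ezh2 take larger shares in both irradiated libraries, and Ezh2 reaches 84.8% and 88.1% in the irradiated cKO and wild-type libraries.

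The 2 alternative methyltransferases of Polycomb repressive complex 2 went in opposite directions in both genotypes. Ezh2 (ENSMUSG00000029687, GRCm38 chromosome 6, 47530274 to 47595270) had 10.8 and 15.2 FPKM in the irradiated cKO and wild-type libraries, against 9.47 and 9.61 FPKM in the steady-state cKO and wild-type libraries. Ezh1 (ENSMUSG00000006920, GRCm38 chromosome 11, 101191115 to 101226463) had 1.94 and 2.06 FPKM in the irradiated cKO and wild-type libraries, against 6.51 and 6.32 FPKM in the steady-state cKO and wild-type libraries. The counting intervals of Ezh1 did not overlap between irradiated and steady-state libraries. The share of all genes tested without such overlap was not counted, and 21.3% in cKO and 18.8% in wild type were at least 2-fold lower on the log2(FPKM + 1) scale. The interval of Ezh2 in the irradiated cKO library (10.1 to 11.6 FPKM) overlapped those in the steady-state cKO (8.82 to 10.2 FPKM) and wild-type (8.95 to 10.3 FPKM) libraries. Irradiated over steady state, Ezh2 had a ratio of 1.14 (1.03 to 1.26) in cKO and 1.58 (1.44 to 1.73) in wild type, and its log2 difference stayed positive under all 5 other scalings. Ezh1 was 3.36-fold (2.98 to 3.80) lower in the irradiated cKO library and 3.07-fold (2.72 to 3.47) lower in the irradiated wild-type library. Ezh2 over Ezh1 was therefore 5.58 (4.91 to 6.35) and 7.37 (6.52 to 8.35) in the irradiated cKO and wild-type libraries, against 1.45 (1.33 to 1.59) and 1.52 (1.39 to 1.66) in the steady-state cKO and wild-type libraries.

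Bmi1 (ENSMUSG00000026739, GRCm38 chromosome 2, 18677018 to 18686629), of Polycomb repressive complex 1, had 5.17 and 6.79 FPKM in the irradiated cKO and wild-type libraries, against 11.4 and 9.14 FPKM in the steady-state cKO and wild-type libraries. It was lower in both irradiated libraries, 2.20-fold (1.98 to 2.45) in cKO and 1.35-fold (1.21 to 1.49) in wild type. Cdkn2a, the cell cycle inhibitor locus that Bmi1 is known to repress, had 2 and 1 reads in the irradiated cKO and wild-type libraries and 0 and 2 reads in the steady-state cKO and wild-type libraries. No difference in Cdkn2a was detectable at this depth.

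Promoter sequence is shown for Dnmt1 and Ezh2, which hold an E2F motif of replication genes, and for Ezh1 and Tet1, which were lower after irradiation by more than 3-fold. RefSeq windows (GRCm38.p6) run from 250 bases before to 50 bases after an annotated start, and the 10 genes have 15 of them. The motifs TTTCCCGC and TTTGGCGC, bound by E2F factors, were searched on both strands. TTTGGCGC was found in 2 of the 15 windows, and TTTCCCGC in 0. Either motif occurred in 1.56% of all 32851 windows and in 3.10% of the windows of genes tested. The sequences run 5′ to 3′ on the strand of the gene, with TTTGGCGC in capitals. They are the Dnmt1 window with the motif (minus strand, chr9:20952574-20952873), Ezh2 (minus strand, chr6:47594981-47595280), Ezh1 (minus strand, chr11:101226414-101226713) and Tet1 (minus strand, chr10:62887275-62887574).
Dnmt1: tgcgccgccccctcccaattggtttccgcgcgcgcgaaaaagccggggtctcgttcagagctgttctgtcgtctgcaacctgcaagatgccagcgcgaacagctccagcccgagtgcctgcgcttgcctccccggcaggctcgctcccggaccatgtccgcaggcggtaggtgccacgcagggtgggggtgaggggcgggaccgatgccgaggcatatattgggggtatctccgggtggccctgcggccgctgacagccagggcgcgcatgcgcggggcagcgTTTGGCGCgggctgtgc
Ezh2: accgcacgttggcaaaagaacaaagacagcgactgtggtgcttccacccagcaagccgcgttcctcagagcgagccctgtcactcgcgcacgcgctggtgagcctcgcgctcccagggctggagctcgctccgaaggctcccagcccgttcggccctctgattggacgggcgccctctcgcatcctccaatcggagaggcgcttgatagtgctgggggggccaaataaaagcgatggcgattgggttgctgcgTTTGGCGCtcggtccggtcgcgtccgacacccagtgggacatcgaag
Ezh1: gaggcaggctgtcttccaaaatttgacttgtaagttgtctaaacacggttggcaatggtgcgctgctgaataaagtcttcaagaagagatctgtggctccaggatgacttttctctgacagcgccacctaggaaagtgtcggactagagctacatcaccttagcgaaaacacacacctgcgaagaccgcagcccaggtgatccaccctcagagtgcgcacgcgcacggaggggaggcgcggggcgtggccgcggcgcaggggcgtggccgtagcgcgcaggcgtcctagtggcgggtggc
Tet1: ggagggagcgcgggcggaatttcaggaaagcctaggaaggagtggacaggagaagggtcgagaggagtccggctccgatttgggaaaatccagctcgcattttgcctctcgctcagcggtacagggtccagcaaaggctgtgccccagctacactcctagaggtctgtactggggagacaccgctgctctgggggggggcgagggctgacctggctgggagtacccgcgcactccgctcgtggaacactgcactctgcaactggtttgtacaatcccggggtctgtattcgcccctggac
The motif starts at base 34 after the start in Dnmt1 and at base 4 after it in Ezh2. E-boxes, the kind of site that basic helix-loop-helix factors bind, were searched in 3 forms on both strands. The form CAGATG occurred in 0 of the 15 windows, beside 17.2% of all windows and 11.1% of windows of genes tested. The form CATATG also occurred in 0 of them, beside 3.91% and 1.71%. The form CAGCTG occurred in 1 window, that of Tet3, beside 16.3% and 14.3%. The cell cycle element TTTGAA occurred in 2 of the 15 windows, the first of Dnmt1 and that of Dnmt3b. Its share was 17.9% of all windows and 12.7% of windows of genes tested. The CpG counts of the windows shown were 33 in Dnmt1, 31 in Ezh2, 23 in Ezh1 and 17 in Tet1. The median was 7 over all windows and 20 over windows of genes tested, so Tet1 lay below the latter. The Dnmt1 windows not shown held 2 and 12.

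The irradiated and steady-state libraries differed at very many genes, and the counts of members were read against that. In cKO, 3 of the 7 (Dnmt3b, Ezh1 and Bmi1) were at least 2-fold lower in the irradiated library on the log2(FPKM + 1) scale, beside 21.3% of all genes tested, and 0 were higher, beside 9.51%, so 3 in either direction, beside 30.9%. At 1.5-fold, 4 were lower (with Dnmt3a, at −0.95), beside 35.7%, and 0 were higher, beside 18.2%, 4 in either direction, beside 53.9%. The cKO count of 3 fell to 1 (Ezh1) when the libraries were scaled by the median of ratios or the upper quartile, or centred on the median of all genes tested. In wild type, 2 of the 7 genes tested (Dnmt3a and Ezh1) were at least 2-fold lower, beside 18.8% of all genes, and 0 were 2-fold higher, beside 14.9%, so 2 in either direction, beside 33.8%. At 1.5-fold, 3 were lower (with Dnmt3b), beside 29.6%, and 1 was higher (Ezh2), beside 27.8%, 4 in either direction, beside 57.4%. The median of the 7 genes was −0.95 in cKO, where the median of all genes tested was −0.27, and −0.38 in wild type, where it was −0.01. With 7 genes, these shares single out no member from the background. Tet1, outside the genes tested, had log2 differences of −1.34 in cKO and −1.23 in wild type.

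**Figure D3:**
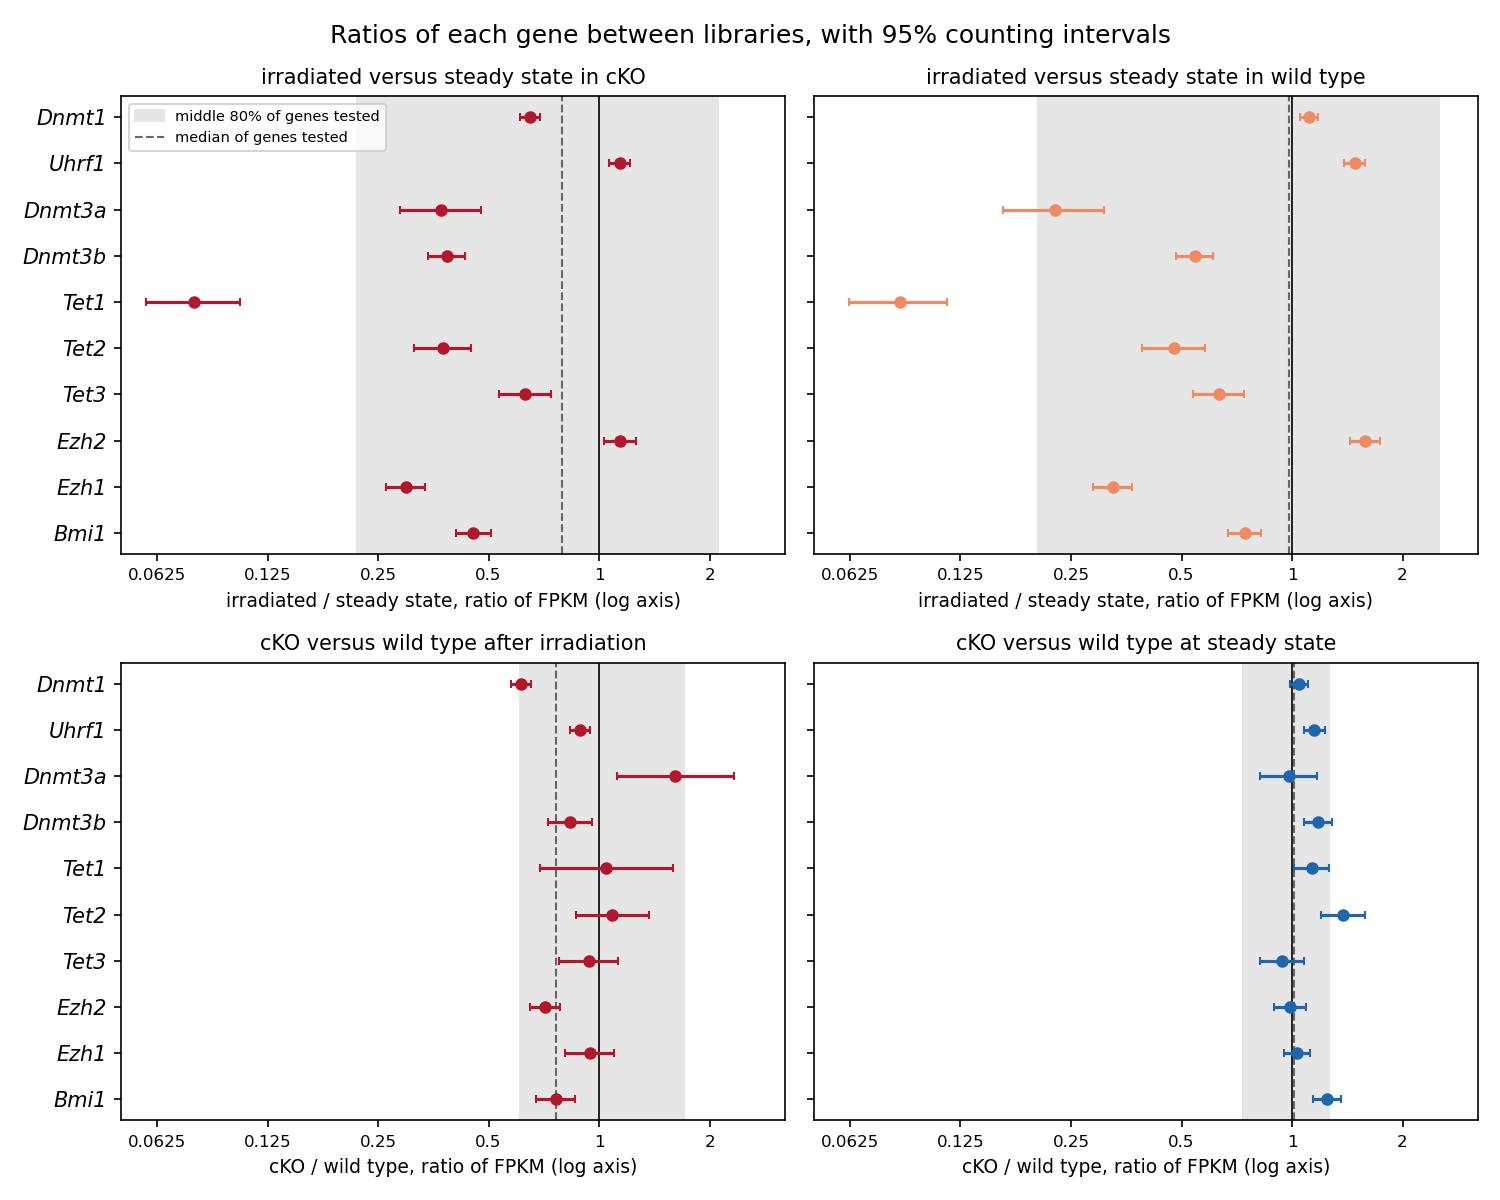
Ratio of FPKM for each gene (log axis) in 4 comparisons: irradiated over steady state in cKO and in wild type, and cKO over wild type after irradiation and at steady state. Points are ratios of 2 libraries, bars are 95% counting intervals, the grey band holds the middle 80% of genes tested and the dashed line is their median. Tet1 lies outside the band in both irradiation panels, while its difference in log2(FPKM + 1) was at percentile 13.3 in cKO and 14.9 in wild type, inside the middle 80%, and the steady-state genotype panel has every gene between 0.941 and 1.38.

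After irradiation, cKO and wild type differed at several of the 10 genes, although the median of all genes tested was itself lower in cKO (−0.31 in log2(FPKM + 1)). Scaled to the recovered reads, that median was −0.02. Of the 7 genes tested, 0 were 2-fold higher or lower in cKO, beside 3.73% of all genes that were higher and 0.782% that were lower (4.51% in either direction). At 1.5-fold, Dnmt1 was lower in cKO, beside 15.3% of all genes, and 0 were higher, beside 7.86%, 1 in either direction, beside 23.2%. It had 10.8 FPKM in cKO and 17.7 FPKM in wild type, a ratio of 0.612 (0.574 to 0.652). Its log2 difference was −0.66, at percentile 8.74 among the differences of genes tested. Under the 5 other scalings it was between −0.47 and −0.32, short of 1.5-fold in all of them. Ezh2 (0.713, 0.650 to 0.782) and Bmi1 (0.761, 0.674 to 0.860) were lower in cKO too, in every scaling, with the Bmi1 difference then reaching −0.02. The median ratio of all genes tested was 0.762, and the differences of Ezh2 and Bmi1 were at percentiles 31.3 and 46.3. Dnmt3a was the one gene higher in cKO beyond counting error, with 85 reads in cKO and 50 reads in wild type and a ratio of 1.61 (1.12 to 2.32), and its direction held in every scaling. Uhrf1 (0.884) and Dnmt3b (0.832) were lower in cKO as deposited, but Uhrf1 turned to the other sign under all 5 scalings and Dnmt3b under 4 of them.

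Markers of other cells differed between the irradiated genotypes beside these values. Of 12 neutrophil markers tested, 11 were at least 2-fold higher in irradiated cKO cells, and the list summed to 1492 FPKM in cKO against 485 FPKM in wild type. All 10 macrophage and dendritic markers tested were at least 1.5-fold higher, with sums of 2659 FPKM in cKO and 1368 FPKM in wild type. B and plasma cell markers summed to 4506 FPKM in cKO and 1539 FPKM in wild type, and 5 of 8 were at least 1.5-fold higher. None of these markers was at 0 in either library. Of 13 erythroid markers, 5 were at least 2-fold higher and 1 was 2-fold lower in irradiated cKO cells, with sums of 15628 FPKM in cKO and 13441 FPKM in wild type. The list median was −0.20, so the higher sum does not describe the list as a whole. Hba-a1 had 6074 FPKM in cKO and 2762 FPKM in wild type, while Car1 had 1995 FPKM in cKO and 4546 FPKM in wild type. Of 17 genes of the G2 and M phases, 11 were at least 1.5-fold lower in irradiated cKO cells, with a median log2 difference of −0.60. The 20 S phase genes tested had a median of −0.50, with 2 at least 1.5-fold lower, and 9 reference genes, used widely as stable controls, had a median of −0.51, with 3 at least 1.5-fold lower. The median of all genes tested was −0.31. The part of these lists in the differences of Dnmt1, Ezh2, Bmi1 and Dnmt3a was not tested.

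At steady state the 10 genes differed little between genotypes. Of the 7 genes tested, 0 were 2-fold higher or lower in cKO, beside 0.748% of all genes tested that were higher and 1.95% that were lower (2.69% in either direction). At 1.5-fold the count was 0 as well, beside 2.2% higher and 4.98% lower (7.18% in either direction). Bmi1 had 11.4 FPKM in cKO and 9.14 FPKM in wild type, a ratio of 1.24 (1.14 to 1.36). Tet2 had 1.14 FPKM in cKO and 0.824 FPKM in wild type, the highest ratio of the 10 at 1.38 (1.20 to 1.59). Dnmt3b (1.17, 1.08 to 1.28), Uhrf1 (1.15, 1.08 to 1.23) and Tet1 (1.13, 1.01 to 1.26) were also higher in cKO beyond counting error. These 5 genes kept that direction under all 5 other scalings. The intervals of Dnmt1, Dnmt3a, Tet3, Ezh1 and Ezh2 included 1. Beside these values, 8 of 10 macrophage and dendritic markers tested were at least 2-fold lower in cKO, with sums of 1340 FPKM in cKO and 2537 FPKM in wild type. Of 12 neutrophil markers, 5 were at least 2-fold higher (3943 FPKM in cKO, 3235 FPKM in wild type), and of 13 erythroid markers, 3 were at least 2-fold lower (2663 FPKM in cKO, 3960 FPKM in wild type). The part of these markers in the differences was not tested. No replicate spread is available against which differences of this size could be judged.

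The difference between the genotype differences (irradiated minus steady state) was below 1 in size for all 7 genes tested. It was −0.72 for Dnmt1 and −0.62 for Bmi1, beside a median of −0.32 over all genes tested. Dnmt3a had 0.36. With 1 library in each of 4 groups, these values have no test.

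Most transcripts of the S phase were higher in irradiated cells, and the replication-linked genes Uhrf1 and Ezh2 differed in that direction by less than most of them. Of 20 S phase genes tested, 3 were at least 2-fold higher in the irradiated cKO library and 10 in the irradiated wild-type library, and 0 were 2-fold lower in either. Their median was 0.56 in cKO and 1.01 in wild type. By comparison the log2 differences in cKO were 0.18 for Uhrf1, 0.17 for Ezh2 and −0.58 for Dnmt1. In wild type they were 0.54 for Uhrf1, 0.61 for Ezh2 and 0.14 for Dnmt1. Rrm2, a ribonucleotide reductase subunit, had the largest S phase difference in both genotypes, with 179 and 226 FPKM in the irradiated cKO and wild-type libraries, against 51.3 and 52.1 FPKM in the steady-state cKO and wild-type libraries. The G2 and M phase list had medians of 1.10 in cKO and 1.60 in wild type over 17 genes. The part of cell cycle and erythroid content in the values of Uhrf1, Ezh2 and Dnmt1 was not tested.

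The other subunits of Polycomb repressive complex 2 were mixed after irradiation. Of 9 further subunits of Polycomb repressive complex 2, 0 were 2-fold higher in irradiated cKO cells and 1 was 2-fold lower. In irradiated wild-type cells 1 was higher by that measure and 1 was lower. Phf1, an accessory subunit, had 0.878 and 0.372 FPKM in the irradiated cKO and wild-type libraries, against 5.22 and 5.16 FPKM in the steady-state cKO and wild-type libraries. Phf1 passed the filter only through steady state. Rbbp4, a histone chaperone of the complex, was the one 2-fold higher in wild type (1.17), where the steady-state wild-type library had 15.2 FPKM and the other libraries at least 27.1 FPKM. Eed and Suz12, the core partners of Ezh1 and Ezh2, had differences of 0.24 and −0.34 in cKO and 0.79 and 0.21 in wild type.

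Of 16 other subunits of Polycomb repressive complex 1 tested, 4 were at least 2-fold lower in irradiated cells of each genotype and 0 were higher, beside 21.3% of all genes tested that were lower in cKO and 18.8% in wild type. Rnf2, Cbx6 and Phc1 were among the 4 in both genotypes, with Scmh1 in cKO and Cbx2 in wild type. Phc1, Scmh1 and Cbx2 were below 1 FPKM in both irradiated libraries and passed the filter only through steady state, which favours a lower call. Rnf2, the ubiquitin ligase partner of Bmi1, was lowest, with 3.86 and 4.32 FPKM in the irradiated cKO and wild-type libraries, against 18.6 and 15.1 FPKM in the steady-state cKO and wild-type libraries. The chromobox gene Cbx6 followed (−1.75 in cKO, −1.57 in wild type). Pcgf1 and Pcgf6, relatives of Bmi1 in other forms of the complex, had differences of −0.18 and 0.28 in cKO and of 0.72 and 0.92 in wild type. The list median was −0.63 in cKO and −0.31 in wild type, beside −0.27 in cKO and −0.01 in wild type over all genes tested.

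**Figure D4:**
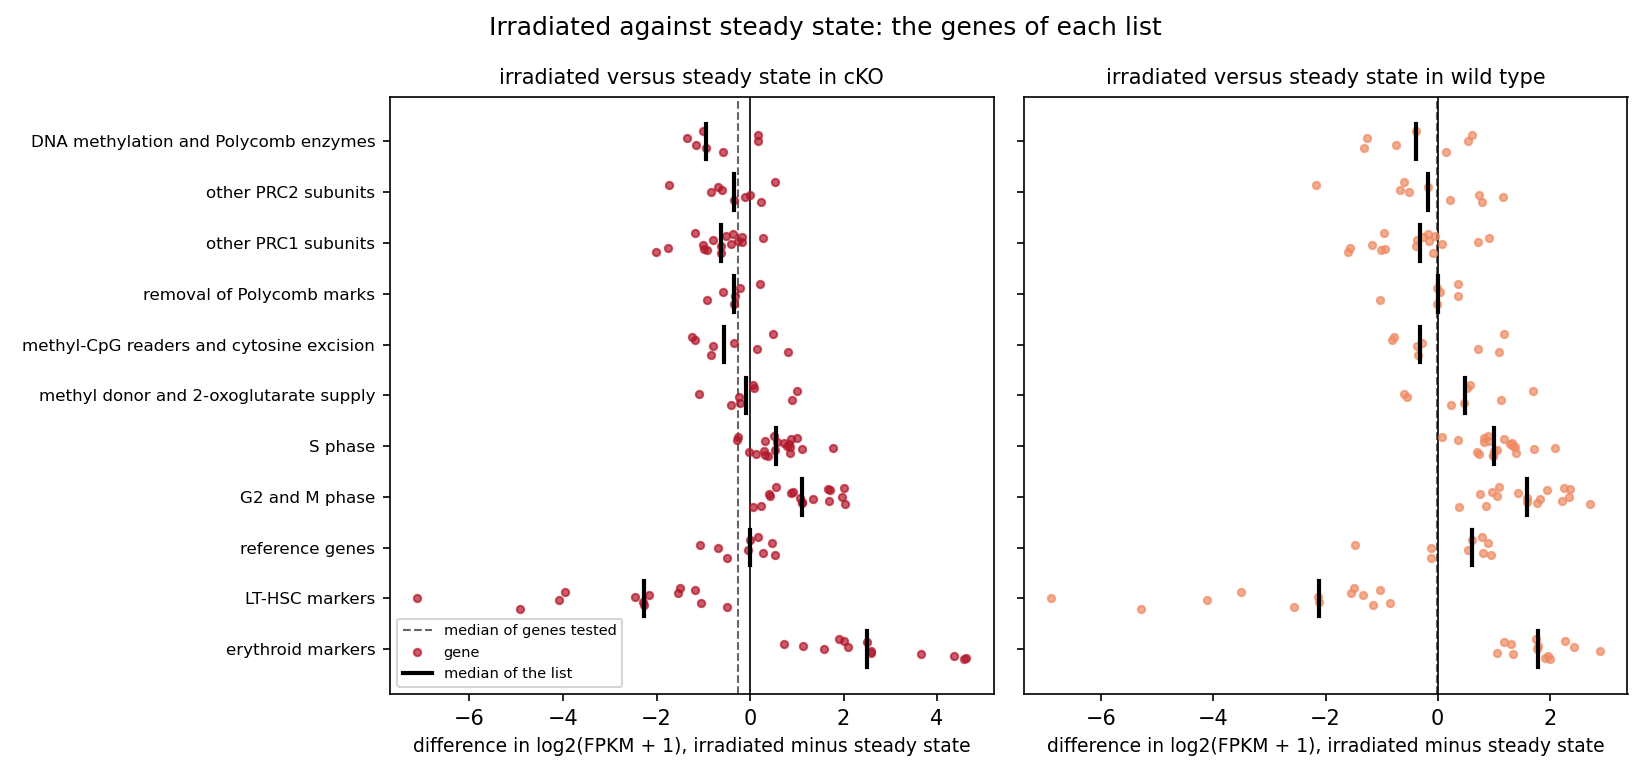
Difference in log2(FPKM + 1), irradiated minus steady state, for the genes tested of 11 lists in cKO (left) and wild type (right). Dots are genes, black bars are list medians, and the dashed line is the median of all genes tested. The S phase medians are 0.56 in cKO and 1.01 in wild type, and the medians of the 7 DNA methylation and Polycomb enzymes are −0.95 in cKO and −0.38 in wild type.

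Genes that read methyl-CpG or excise modified cytosine were mixed. Of 8 tested, 0 were at least 2-fold higher and 2 lower in irradiated cKO cells, and 2 were higher and 0 lower in irradiated wild-type cells. Tdg, the glycosylase that excises the oxidation products made by Tet enzymes, had 11.8 and 17.6 FPKM in the irradiated cKO and wild-type libraries, against 8.08 and 7.20 FPKM in the steady-state cKO and wild-type libraries. Mbd2, a methyl-CpG binding protein, had differences of 0.81 in cKO and 1.10 in wild type. Uhrf2, the relative of Uhrf1, had differences of −1.24 in cKO and −0.77 in wild type. Among 6 genes that remove Polycomb marks, Kdm6b, a histone demethylase, had −0.92 in cKO and, as the one 2-fold lower, −1.02 in wild type. Enzymes supplying methyl donor and 2-oxoglutarate had Idh3a (1.01) at least 2-fold higher and Idh2 (−1.09) lower in cKO, and 2 of 8 genes, Ahcy (1.13) and Idh3a (1.70), higher in wild type.

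The genes with profiles most like the members were found by the distance between 4-library profiles of log2(FPKM + 1), each less its own mean, among 9852 genes. For Ezh2 they were Dazap1, Mul1 and Fbxo7 (distances of 0.01, 0.02 and 0.03). For Ezh1 they were Tmem220, Zdhhc18 and Asb13 (0.03, 0.05 and 0.05). For Tet1 they were Asb13, Man2a2 and Elac1 (0.03, 0.04 and 0.05). Profiles over 4 libraries of this many genes will contain close matches, and these are given as a description.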

How the data were processed

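RNA-seq was used from 4 libraries, 1 per group, each a deposited file of FPKM per Ensembl gene made by the authors. Per the submitters' processing notes, the series used mm10, HOMER, MACS2 2.1.0, BWA 0.7.12-r1039 and Bowtie. The tool behind the FPKM, and whether counting used strand: not given in the sources used here.

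Symbols were joined to 30231 of 30409 identifiers. Where 2 identifiers shared a symbol (6 symbols), the higher mean was used. Genes with a mean of at least 1 FPKM over the 4 libraries (11505) were tested by the difference in log2(FPKM + 1), without a p-value, and called at 2-fold (1.5-fold as a second rule). An FPKM depends on all other genes of its library, so scalings were varied.

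Reads were recovered as the smallest whole gene length giving whole reads (tolerance 0.02) in all libraries, for 99.98% of 29934 genes above 0. They can be low by a whole factor, which widens intervals. FPKM intervals are Clopper-Pearson, ratio intervals conditional binomial. Read recovery and the 2-fold call were tested on simulated data. The members and lists were chosen with earlier results of these data known. The text names all members, genes at the extremes of a list (at most 4 a list and comparison), Twist1, Cdkn2a and Ddx3y, and the 3 nearest profiles of Ezh2, Ezh1 and Tet1; those of Dnmt1 are not reported here. Cdkn2b, Lin28b, Pax5, Ddx4, Eed, Suz12, Pcgf1, Cbx2, Phc1, Scmh1 and Hba-a1 were named after their values were seen. Alternatives were other pseudocounts, filters and scalings. Python 3.11.15, pandas 2.3.3 and scipy 1.17.1 were used.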

Additional observations from a re-analysis of the deposited data

Results flagged for a closer look

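Opposite directions beyond counting error appeared in 4 of the 10 genes, and the difference between the directions was not tested. Dnmt1, irradiated over steady state, had a ratio of 0.650 in cKO and 1.11 in wild type. For cKO over wild type, Dnmt3b had a ratio of 0.832 after irradiation and 1.17 at steady state. Uhrf1 had 0.884 after irradiation and 1.15 at steady state, and Bmi1 had 0.761 after irradiation and 1.24 at steady state. The median genotype difference of all genes tested was itself 0.02 at steady state and −0.31 after irradiation. Relative to that median, the irradiated values of Uhrf1 and Dnmt3b were no longer lower in cKO. The irradiated value of Bmi1 was −0.03 relative to it, at percentile 46.3 among genes tested. The wild-type value of Dnmt1 changed sign under 2 of 5 other scalings. The share of all genes tested with such opposite directions was not counted.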

How the results depend on the processing

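After irradiation and at steady state, the count of genes 2-fold apart between genotypes was 0 under every alternative run, as was the count of differences of genotype differences of at least 1. Irradiated against steady state in cKO, the count of 3 became 0 with a pseudocount of 5, and 1 when scaled by the median of ratios or the upper quartile or centred on the median of all genes tested; it was 2 at a mean of 5 FPKM, and 4 with a pseudocount of 0.1 or without the 50 most abundant genes (each adding Dnmt3a) and with no filter (adding Tet1). In wild type the count of 2 became 0 with a pseudocount of 5 or a mean of at least 5 FPKM, 1 with 5 FPKM in the higher library, and 3 with no filter (adding Tet1) or without the 50 most abundant genes (adding Dnmt3b). Fewer genes enter under the stricter filters, and a larger pseudocount shrinks every difference by construction; for the scalings the cause was not tested. Scaled to recovered reads, an alternative chosen after seeing the data, the counts stayed at 3 in cKO and 2 in wild type. Among single genes, 92 values moved beyond their counting interval, under another scaling, centring or pseudocount, and 0 called values changed sign; the filters leave single differences as they are by construction. Ratios between paralogues do not depend on scaling and were equal under those run; filters, pseudocounts and centring give no other value for them. Over all genes, those 2-fold higher and lower in irradiated cKO than wild type numbered 429 and 90 (82.7% higher), and 813 and 253 with a pseudocount of 0.1, 176 and 38 with 5, 812 higher (86.7%) without a filter, 212 and 55 at a mean of 5 FPKM, and 751 and 48 (94.0%) when centred. At steady state 86 and 224 (27.7%) became 235 and 382 with a pseudocount of 0.1, 33 and 144 with 5, and 119 and 188 (38.8%) scaled to recovered reads. For irradiation in cKO, 1094 and 2456 (30.8%) became 545 and 960 with a pseudocount of 5, 608 and 1230 at a mean of 5 FPKM, and 50.3%, 42.3% and 49.6% higher under the median of ratios, the upper quartile and centring. For irradiation in wild type, 1718 and 2165 (44.2%) became 992 and 949 with a pseudocount of 5, 1299 and 1048 at a mean of 5 FPKM, 21.8% higher without the 50 most abundant genes and 31.9% scaled to recovered reads. The median log2 difference of all genes tested, −0.31 between irradiated genotypes, lay between −0.15 and 0.00 under the other scalings; at steady state, 0.02, between −0.10 and 0.13; for irradiation in cKO, −0.27, between −0.34 and 0.01; and in wild type, −0.01, between −0.36 and 0.00. No paired analysis was possible because each group has 1 library without a replicate number. With 1 library per group none could be left out. Among the 10 genes, Tet1 and Dnmt3a had the fewest reads, down to 47 and 50.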

Other observations

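Of 8 loci known as Polycomb targets, 2 were among the genes tested, Cdkn1c and Hmga2. Both passed the filter only through the steady-state libraries, so a lower irradiated level was nearly fixed in advance. Both were at least 2-fold lower in the irradiated library of each genotype, beside 21.3% of all genes tested in cKO and 18.8% in wild type. Cdkn1c, an imprinted cell cycle inhibitor gene, had 0.376 and 0.177 FPKM in the irradiated cKO and wild-type libraries, against 7.36 and 8.44 FPKM in the steady-state cKO and wild-type libraries. Hmga2, a chromatin protein gene of self-renewing fetal stem cells, had 0.258 and 0.173 FPKM in the irradiated cKO and wild-type libraries, against 4.48 and 5.07 FPKM in the steady-state cKO and wild-type libraries. Cdkn2b, the neighbour of Cdkn2a, lay below the filter and was not tested; it had 1.10 and 1.91 FPKM in the irradiated cKO and wild-type libraries, against 0.0569 and 0.165 FPKM in the steady-state cKO and wild-type libraries. Lin28b and Pax5 stayed below 0.1 FPKM in all 4 libraries.

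Germline genes known to be silenced by promoter methylation stayed near 0. The 8 listed genes found summed to 1.04 and 0.484 FPKM in the irradiated cKO and wild-type libraries, against 1.05 and 1.46 FPKM in the steady-state cKO and wild-type libraries. Ddx4, a germ cell helicase gene, was the highest of them in each library, with 0.449 and 0.238 FPKM in the irradiated cKO and wild-type libraries and 0.779 and 0.930 FPKM in the steady-state cKO and wild-type libraries.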
